A study of Homo sapiens with 8 samples.

Results

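The genes described are FAM198B, SLC14A1 and UTS2B, 3 of the 43317 genes on the array, represented by 5 of its 58201 probes. They were chosen by the log2 ratio on 1 array, as the named genes with the highest value of transfected over mock PC3 cells after transfection with miR-99a-3p, so that ratio describes how they were picked and is not tested. Expression was measured on 8 two-colour oligonucleotide arrays of 1 slide, with 1 array per condition. On every array the mock cells, which the labels give as without transfection, carried Cy3 and the transfected cells carried Cy5. The lipid reagent Lipofectamine RNAiMAX is named for the transfections. PC3 prostate cancer cells received miR-150-5p, miR-150-3p, miR-99a-3p or miR-100-3p, PANC-1 pancreatic carcinoma cells received either of 2 siRNAs against the transcription factor gene FOXQ1, and FaDu hypopharyngeal squamous carcinoma cells received one arm of miR-99a, 3p or 5p. No array had the dyes swapped and no control miRNA was hybridised on the arrays analysed here, so the effects of the dye, of the transfection procedure and of the miRNA cannot be told apart.

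MicroRNAs load into Argonaute proteins and guide them to messenger RNAs, mostly by pairing of the seed, the bases near the 5′ end of the miRNA. Pairing lowers the amount or the translation of the target. SLC14A1 encodes urea transporter B, a channel protein for urea in red blood cells and kidney vessels that carries the Kidd blood group antigens. UTS2B encodes the precursor of urotensin II-related peptide, a ligand of the G protein-coupled urotensin receptor UTS2R, which acts on vascular tone. FAM198B, now named GASK1B, encodes a Golgi-associated membrane protein of the FAM198 family, whose function is little known.

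The mature sequences of 3 of the transfected miRNAs are given: the one that chose the genes, one that shares most of its seed, and the other arm of its hairpin. The sequences of miR-150-5p and miR-150-3p were not compared here. Each is 22 bases long, is written 5′ to 3′ as in RefSeq (GRCh38.p14), and has its seed (bases 2 to 8) in capitals.
miR-99a-3p: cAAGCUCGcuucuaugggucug
miR-100-3p: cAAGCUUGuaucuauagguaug
miR-99a-5p: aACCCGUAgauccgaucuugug
The genomic positions are chr21:16539138-16539159 on the plus strand for miR-99a-3p, chr11:122152240-122152261 on the minus strand for miR-100-3p and chr21:16539101-16539122 on the plus strand for miR-99a-5p. Aligned without gaps, miR-100-3p shared 6 of the 7 seed bases of miR-99a-3p and 17 of all 22. The seed difference was C7U, counted from the 5′ end, with the base of miR-99a-3p first. The other arm, miR-99a-5p, shared 2 of 7 seed bases with miR-99a-3p.

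FAM198B and UTS2B had 1 probe each and SLC14A1 had 3, and every one of the 5 probes was printed at 1 spot. The FAM198B probe lies at chr4:159046156-159046215 on the minus strand of hg19, the build of the array annotation, and the UTS2B probe at chr3:190984998-190985057 on the minus strand. The SLC14A1 probes lie on the plus strand of chromosome 18, at positions 43329812 to 43329871 (A_33_P3210399), 43330241 to 43330300 (A_23_P55616) and 43331926 to 43331985 (A_24_P926507). All 3 carry the same transcript annotation, NM_001146037, with no exon or UTR given. A_23_P55616 was the brightest over both channels of the 8 arrays and stands for SLC14A1 unless another probe is named.

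Between 44.5% and 49.2% of the gene spots of an array were well above background in Cy3 and between 37.2% and 41.8% in Cy5, and none was saturated. The cell line labels were checked against markers in the mock channels. HOXB13, a homeobox factor of prostate epithelium, was well above background in 4 of 4 PC3 mock channels and KLK3, a secreted prostate protease, in 0 of 4. The squamous markers KRT5, KRT14, TP63 and DSG3 were above background in 2 of 2 FaDu mock channels and in none of the others. KRT8 and KRT18 were present in all 3 lines, and CDKN2A, noted as absent for PANC-1, was above background in 2 of 2 PANC-1 mock channels at 284 to 299.5. Of the markers of other cell types, the collagen gene COL1A1 was above background in every mock channel and COL3A1 in none. The endothelial marker PECAM1 was above background in 4 of 4 PC3 mock channels at 83.1 to 115, the leukocyte marker PTPRC in 2 of 4 at 14.8 to 40.9, and the part of such transcripts in the results was not tested. FOXQ1 had log2 ratios of −2.16 (spot error 0.29) and −2.12 (0.28) on the arrays of the 2 siRNAs.

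In PC3 cells with miR-99a-3p, FAM198B went from a mock signal of 42.9 to 748, SLC14A1 from 219 to 2762 and UTS2B from 34.6 to 405.5, in the arbitrary units of the scanner software. These are ratios of 17.4, 12.6 and 11.7. In RNA of whole cultures, more RNA per cell and more cells with the transcript cannot be told apart. All 6 signals were well above background, but the mock signals of FAM198B and UTS2B were close to the detection limit. On this array the lowest Cy3 signal called well above background was 25.6 and the highest not called was 39.8, so the mock signal of UTS2B lay between these values. In a ratio with so dim a mock channel the size depends on how background is removed. The log2 ratios were 4.12 for FAM198B, 3.66 for SLC14A1 and 3.55 for UTS2B, with errors of 0.44, 0.40 and 0.40 that the scanner software gives to each spot. The genes differed among themselves by less than the sum of these errors. A spot error is technical and leaves out the variation between cultures.

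Among the 17452 genes above background in both channels of that array, the median log2 ratio was 0.07, and 46 genes (0.264%) lay above 2. With the background requirement for 1 channel only, 103 of 20545 genes (0.501%) lay above 2. FAM198B stood at place 1, SLC14A1 at place 2 and UTS2B at place 4, after the long intergenic RNA lnc-C19orf26-2 at 3.56 (spot error 0.40). Just outside the choice were LOC100131372 at 3.42 (0.39), ABAT at 3.18 (0.38), COL21A1 at 3.12 (0.36), ANGPTL2 at 3.01 (0.35) and DMRTC1 at 2.96 (0.36). ABAT degrades the transmitter GABA, COL21A1 is a collagen and ANGPTL2 a secreted angiopoietin-like protein. The values from place 2 to place 5 lay within 1 spot error of each other. LOC100131372 had a second probe at −0.59 and ABAT one at 0, whereas COL21A1, ANGPTL2 and DMRTC1 had 1 probe each.

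**Figure D1:**
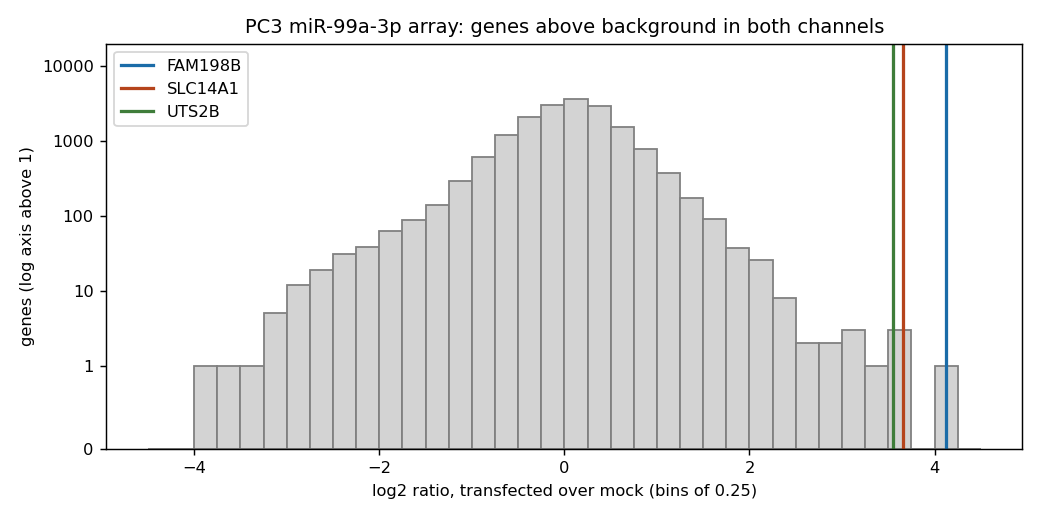
Number of genes (vertical axis, logarithmic above 1) by log2 ratio of transfected over mock cells in bins of 0.25 (horizontal axis) on the PC3 miR-99a-3p array, for the 17452 genes above background in both channels. Coloured lines mark FAM198B at 4.12, SLC14A1 at 3.66 and UTS2B at 3.55, at the upper end of the distribution that was used to choose them.

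The SLC14A1 probes did not give one value. On the PC3 miR-99a-3p array, A_33_P3210399 went from 88.6 in mock cells to 595 in transfected cells, a log2 ratio of 2.75 (spot error 0.34). It was below the 3.66 of A_23_P55616 by more than the sum of both errors. A_24_P926507, which lies farthest along the plus strand, had 34.9 in mock cells and 44.4 in transfected cells, where Cy5 was not well above background, and no fold is given. That probe was above background in 1 of 16 channels in all, the mock channel of this array, so it carries almost no information on the gene. The other 2 probes had the same sign on all 4 PC3 arrays. With miR-150-5p both values, −0.02 (0.21) and −0.13 (0.35), lay within their spot errors. Cy5 of A_33_P3210399 was not well above background there or with miR-150-3p.

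**Figure D2:**
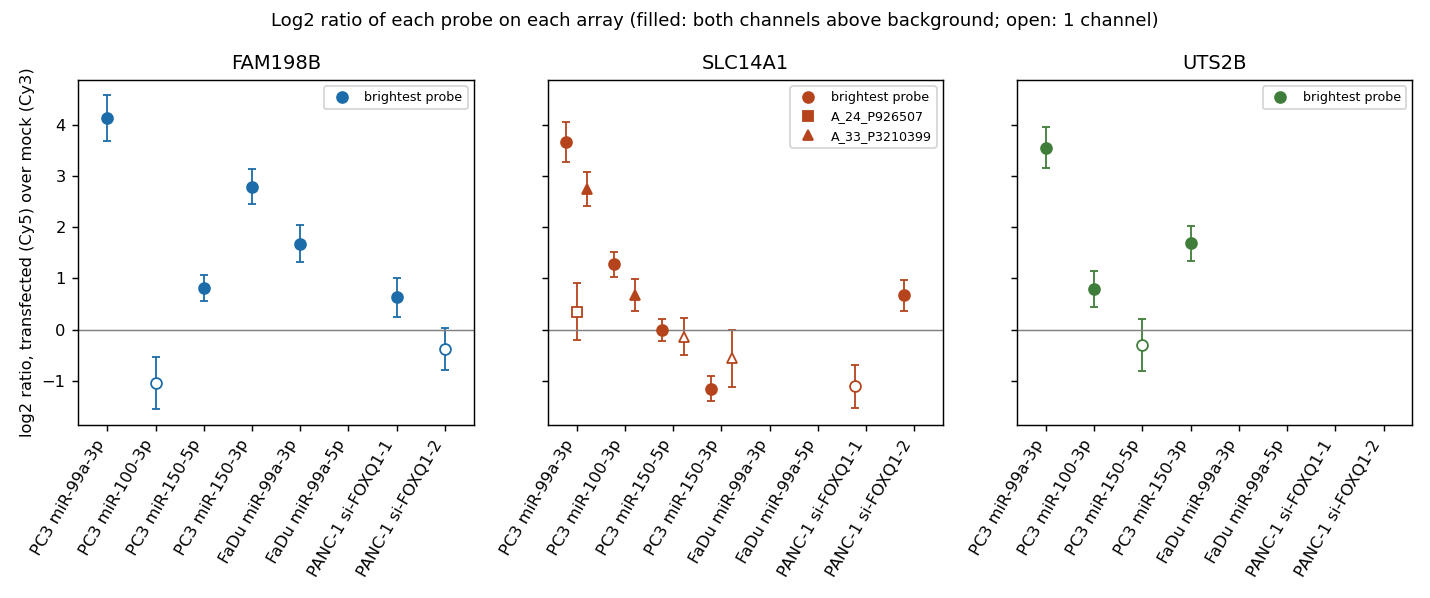
Log2 ratio of transfected (Cy5) over mock (Cy3) cells on the vertical axis for each probe of FAM198B, SLC14A1 and UTS2B on the 8 arrays, with the spot error of the scanner software as bars. Filled symbols have both channels above background and open symbols 1 channel, and spots with neither are left out. On the PC3 miR-99a-3p array the brightest probe of each gene has its highest value, and on the other arrays the genes differ in direction.

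The arrays that were not used to choose the genes show how far the ratios belong to that condition. FAM198B was above background in both channels on 5 of 8 arrays, SLC14A1 on 5 and UTS2B on 3. All 3 were measured in both channels on the PC3 arrays of miR-150-3p and miR-99a-3p. None of these ratios has a replicate, so no difference between arrays was tested.

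FAM198B went from 67.8 to 468 in PC3 cells with miR-150-3p, a log2 ratio of 2.79 (spot error 0.34), which was place 11 of 17605 genes on that array. On that array 0.176% of the genes above background in both channels lay above 2. In PC3 cells with miR-150-5p it went from 60.6 to 106.8, a log2 ratio of 0.82 (0.25), and it stood at place 289 of 17629. Less the mean of the other 3 PC3 arrays this value was −1.14, but that mean includes the miR-99a-3p array, which chose the gene. The gene was thus higher in transfected than in mock cells on 3 of the 4 PC3 arrays. With miR-100-3p the direction was the opposite, from 35.9 to 17.5. Cy5 was not well above background there, and the level was at least 1.14-fold lower in transfected cells against the lowest Cy5 signal called above background on that array, 31.4. Against the highest signal not called, 46.5, no fold is given.

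In FaDu cells with miR-99a-3p, FAM198B went from 37.5 to 120 (log2 ratio 1.68, spot error 0.37, and 0.66 with normexp background correction). It stood at place 287 of 16482 genes on an array where 7.68% of the genes lay above 1, and it was the only one of the 3 genes above background in FaDu. With miR-99a-5p both channels of FAM198B were not well above background, at 16.2 and 27.2. In PANC-1 cells with siRNA 1 it went from 29.2 to 45.2, a log2 ratio of 0.63 (0.38). With siRNA 2 it went from 33.4 to 25.7, where Cy5 was not well above background, and was at least 1.20-fold lower in transfected cells against the lowest called signal, with no fold against the highest signal not called. The 2 siRNAs against the same gene gave ratios of opposite sign, but the negative one, −0.38, lay within its spot error of 0.41.

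SLC14A1 had a different order of arrays. With miR-150-5p in PC3 its signals were 155 in mock and 154 in transfected cells, a log2 ratio of −0.02 (spot error 0.21). With miR-150-3p it went from 204 to 91.6, a log2 ratio of −1.15 (0.25), and stood at place 17369 of 17605, on an array where 2.28% of the genes measured in both channels lay below −1. With miR-100-3p it went from 147 to 355, a log2 ratio of 1.27 (0.24), at place 67 of 17060 genes, of which 0.944% lay above 1. After miR-99a-3p, the highest SLC14A1 ratio was thus that of miR-100-3p, whose seed differs from that of miR-99a-3p at 1 base. For FAM198B (2.79) and UTS2B (1.69) it was that of miR-150-3p. A part of the seed in these orders was not tested. A_33_P3210399 gave 0.67 (0.31) with miR-100-3p. With miR-150-5p and miR-150-3p its Cy5 was not well above background.

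Outside PC3, SLC14A1 signals were 4.24 and 6.68 on the FaDu miR-99a-5p array and 8.23 and 9.21 on the FaDu miR-99a-3p array, none well above background. A change under miR-99a-3p could therefore not be measured in FaDu cells. In PANC-1 cells with siRNA 1 it went from 46.4 to 21.6, at least 1.43-fold lower against the lowest called signal and with no fold against the highest signal not called. With siRNA 2 it went from 38.9 to 61.7, a log2 ratio of 0.67 (spot error 0.30). The 2 siRNAs gave opposite signs, with the negative ratio, under siRNA 1, from a Cy5 signal not well above background. For FAM198B the positive ratio was under siRNA 1, and the negative one under siRNA 2 lay within its spot error.

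UTS2B was above background in PC3 cells only, among the lines measured. With miR-150-3p it went from 27.7 to 89.0, a log2 ratio of 1.69 (spot error 0.34), at place 65 of 17605 genes, of which 2.62% lay above 1. With miR-100-3p it went from 28.8 to 50.1, a log2 ratio of 0.80 (0.35), at place 330 of 17060. Less the mean of the other 3 PC3 arrays, which includes the miR-99a-3p array that chose the gene, this value was −0.85. With miR-150-5p it went from 21.8 to 17.7, where Cy5 was not well above background and no fold is given. On the FaDu and PANC-1 arrays its Cy3 signals were 3.29 to 7.14, and neither channel was above background. UTS2B was thus higher together with FAM198B under miR-150-3p, where SLC14A1 was lower. Under miR-100-3p UTS2B was higher with SLC14A1. FAM198B had a negative ratio there, but with Cy5 not well above background and no fold against the highest signal not called.

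**Figure D3:**
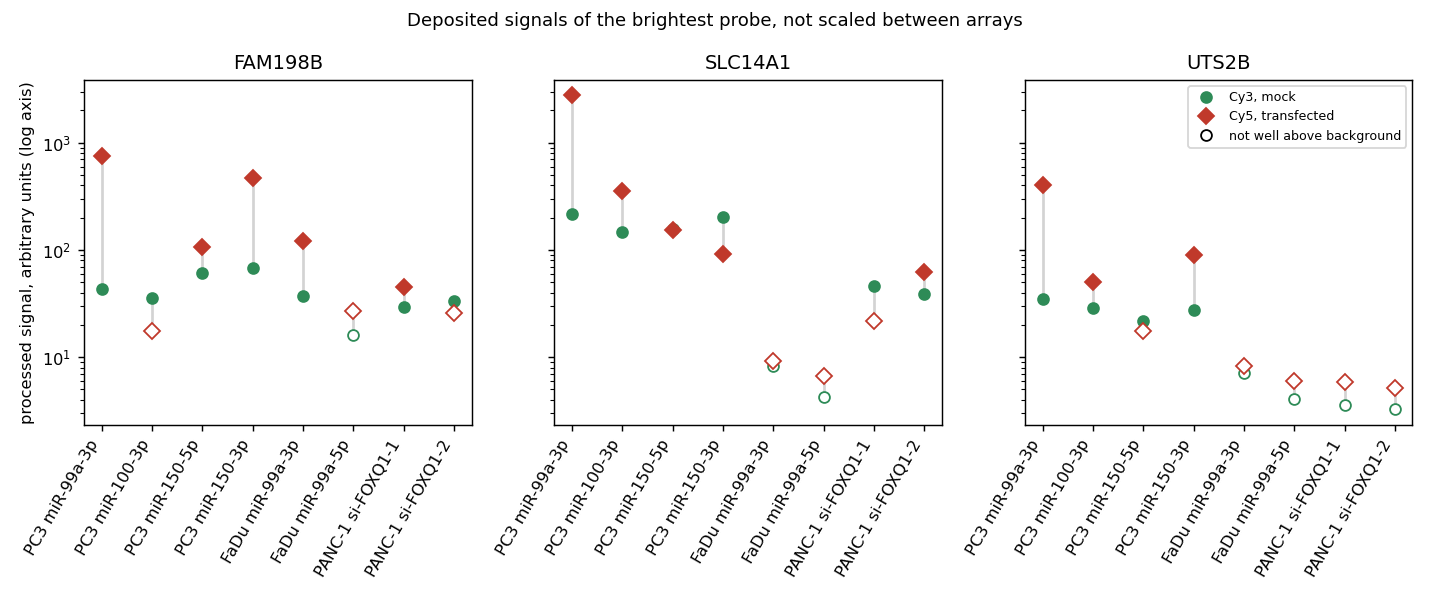
Processed signals of the brightest probe of each gene in mock (Cy3, circles) and transfected (Cy5, diamonds) cells on a logarithmic vertical axis, array by array, not scaled between arrays. Open symbols are not well above background. UTS2B is above background on PC3 arrays only, SLC14A1 on PC3 and PANC-1 arrays, and the highest Cy5 signal of each panel (748, 2762 and 405.5) is that of PC3 cells with miR-99a-3p.

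The mock channels answer whether the cell lines differ in their level of the genes without transfection, and they are the only groups with more than 1 channel. Signals were scaled between arrays and given as log2 of the Cy3 signal. The Cy3 channel of the PC3 miR-99a-3p array was left out of the test because its ratio chose the genes, which left 3 PC3, 2 FaDu and 2 PANC-1 channels. The labels do not say that the mock channels came from separate cultures, so the p-values measure the spread between hybridisations, which may be technical. The test was limma's moderated test with Benjamini-Hochberg adjustment over 29740 probes. Between PC3 and FaDu 72.8% of these probes had an adjusted p under 0.05, between PC3 and PANC-1 64.9%, and between FaDu and PANC-1 67.4%, so a call is what most probes had and sets no gene apart.

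SLC14A1 had the highest level in PC3, with a mean of 7.31 ± 0.042 (SD, n = 4 channels, 7.25 to 7.36), followed by PANC-1 with 5.77 ± 0.12 (n = 2) and FaDu with 2.30 ± 0.22 (n = 2). The channels of the 3 lines did not overlap, and in FaDu 0 of 2 were well above background. The limma difference was 1.55 between PC3 and PANC-1 (SE 0.11, adjusted p = 9.68e-05), and 0.86 with normexp background correction. Against FaDu only a bound can be given, with mock PC3 cells at least 7.30-fold higher and PANC-1 cells at least 2.49-fold higher. The bounds on mock levels use the lowest Cy3 signals called above background and were not computed against the highest signals not called. The probe passed the filter through PC3 and PANC-1, so a difference from FaDu was built in and no p is given. With normexp the difference from FaDu in PC3 was 1.76 on the log2 scale, which is less than the bound of 7.30-fold. FaDu minus PANC-1 was −0.90 with normexp, which is smaller in size than the bound of 2.49-fold. A_33_P3210399 was above background in 4 of 4 PC3 mock channels and in 0 of 2 of FaDu and of PANC-1, so these 2 lines are not ordered by it. PC3 was at least 1.97-fold above FaDu and at least 2.09-fold above PANC-1 at this probe. With normexp the differences were 0.53 and 0.32 on the log2 scale, less than these bounds. The probe passed the filter through PC3 alone, so a difference was built in and no p is given. A_24_P926507 was above background in too few channels to be tested.

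UTS2B was above background in 4 of 4 PC3 mock channels, with a mean of 4.62 ± 0.21 (SD, 4.47 to 4.92), and in 0 of 2 channels of FaDu (2.16 ± 0.13) and of PANC-1 (2.02 ± 0.0078). Against the lowest Cy3 signals called above background, mock PC3 cells were at least 1.16-fold above FaDu and at least 1.23-fold above PANC-1. Bounds against the highest signals not called were not computed. Before scaling, those signals were 25.7 and 44.5 in FaDu and 23.5 and 21.0 in PANC-1. The UTS2B mock signals in PC3 were 21.8 to 34.6, so the bounds depend on the limit used. The probe passed the filter for the test through its PC3 channels alone, so a difference was built into it and no p is given. FaDu and PANC-1, both without a signal above background, are not ordered.

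FAM198B varied most between PC3 mock channels. Its levels were 4.81 to 5.98 with a mean of 5.44 ± 0.53 (SD, n = 4), and the lowest was on the miR-99a-3p array itself, which raises the ratio there. With the mean of the 4 PC3 mock channels as the control, its log2 ratio was 3.49 in place of 4.12. Levels were 5.35 ± 0.22 in PANC-1 (n = 2) and 4.66 ± 0.34 in FaDu (n = 2), where 1 of 2 channels was above background. PC3 and PANC-1 overlapped and did not differ beyond their spread (limma difference 0.30, SE 0.27, adjusted p = 0.367). The difference of PC3 from FaDu was 1.00 (SE 0.27, adjusted p = 0.0173 in limma). It did not pass with all 8 arrays (0.79, adjusted p = 0.0742) or without the FaDu miR-99a-5p array (0.76, adjusted p = 0.0976).

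**Figure D4:**
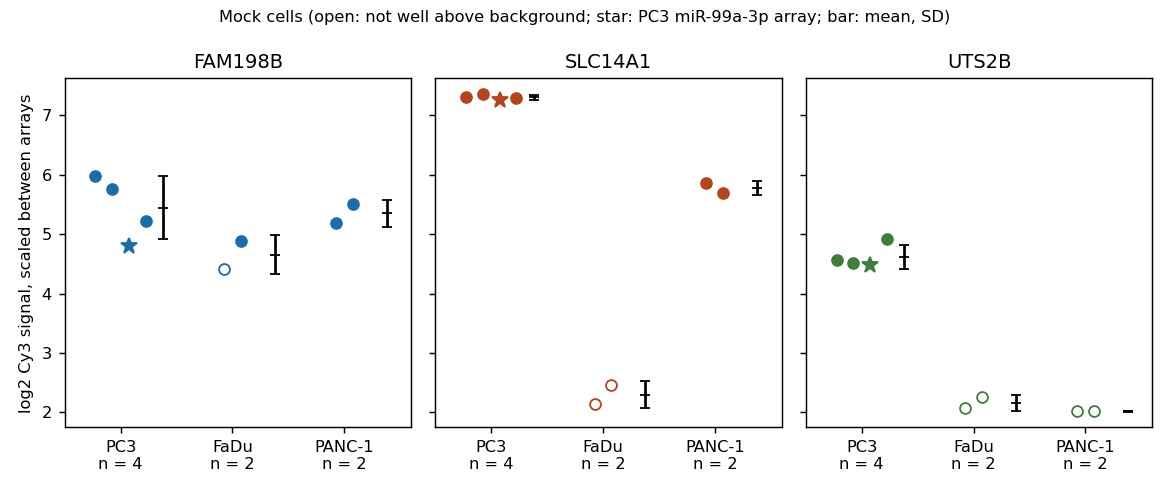
Log2 Cy3 signal of mock cells, scaled between arrays, for the brightest probe of each gene in PC3 (n = 4), FaDu (n = 2) and PANC-1 (n = 2) channels. The star is the PC3 miR-99a-3p array, open symbols are not well above background, and bars are mean and SD. SLC14A1 separates the 3 lines, UTS2B is above background in PC3 only, and FAM198B overlaps between PC3 and PANC-1.

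The relatives of the genes and the pathways around them were taken from 5 lists, described on the PC3 miR-99a-3p array by counts and medians that include the chosen genes. On this array 4.23% of the genes above background in at least 1 channel lay above 1, and 7.39% lay below −1, with a median of 0.02. In the urotensin system, UTS2 (urotensin II) went from 937 to 1693, a log2 ratio of 0.85 (spot error 0.22), and the receptor UTS2R from 9344 to 11620, 0.31 (0.21). Of these 3 genes, UTS2B alone lay above 1. On the other PC3 arrays UTS2 had −1.16 (0.23) with miR-150-5p, 0.01 (0.20) with miR-150-3p and −0.50 (0.21) with miR-100-3p. The PC3 arrays stood in the same order for UTS2 as for UTS2B, with UTS2 at the lower value on each. With miR-150-5p the Cy5 signal of UTS2B was not well above background.

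Of the 8 listed genes of the FAM198 and FAM20 family of secretory pathway kinases and kinase-like proteins, 7 were above background and 3 lay above 1, with a median of 0.82. FAM20A, which activates the kinase FAM20C, went from 1667 to 8044, a log2 ratio of 2.27 (spot error 0.29), and both its probes were above 2. PKDCC, a secreted tyrosine kinase, had 1.12 (0.25) at its brightest probe, and the lowest of its 4 probes had 0. POMK, a kinase of dystroglycan glycans, had 0.82 (0.32). FAM20B, FAM20C and FJX1 lay between −0.60 and −0.09, and FAM198A, the closest relative of FAM198B, was not above background. On the other PC3 arrays FAM20A had 1.45 (0.24) with miR-150-5p, 0.63 (0.21) with miR-150-3p and −0.46 (0.21) with miR-100-3p.

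Around SLC14A1, 6 of the 9 listed genes of urea transport and production were above background, of which 1 lay above 1 (SLC14A1) and 1 below −1, with a median of 0.50. AGMAT, named for the hydrolysis of agmatine to urea, had −1.76 (spot error 0.29). The mitochondrial arginase ARG2 had 0.80 (0.27), ASS1 0.52 (0.21), CPS1 0.48 (0.21) and ASL −0.54 (0.21), the last 3 being enzymes of the urea cycle. SLC14A2, the other urea transporter and the nearest gene before SLC14A1 by probe position on hg19 (67183 bases), was not above background on any of the 8 arrays. Of 4 aquaglyceroporins, water channels that also pass glycerol and urea, AQP3 at 1.00 (0.46) and AQP7 at 0.29 (0.22) were above background. The other AQP7 probe had −1.44.

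Of 23 listed vasoactive peptides and receptors, 22 had a probe and 10 were above background, with a median of 0.15. AGT, the angiotensin precursor, lay above 2 with signals of 81.1 and 377 (log2 ratio 2.23, spot error 0.31). ADM, the precursor of the vasodilator adrenomedullin, lay above 1 with signals of 1527 and 3858 (1.34, 0.24). The other 8 genes, EDN1, EDN3, EDNRA, ADM2, NPPA, AVP, SSTR3 and CORT, lay between −0.79 and 0.54. AGT had 0.27 (0.34) with miR-150-3p and 0.32 (0.33) with miR-100-3p, where UTS2B had 1.69 and 0.80.

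**Figure D5:**
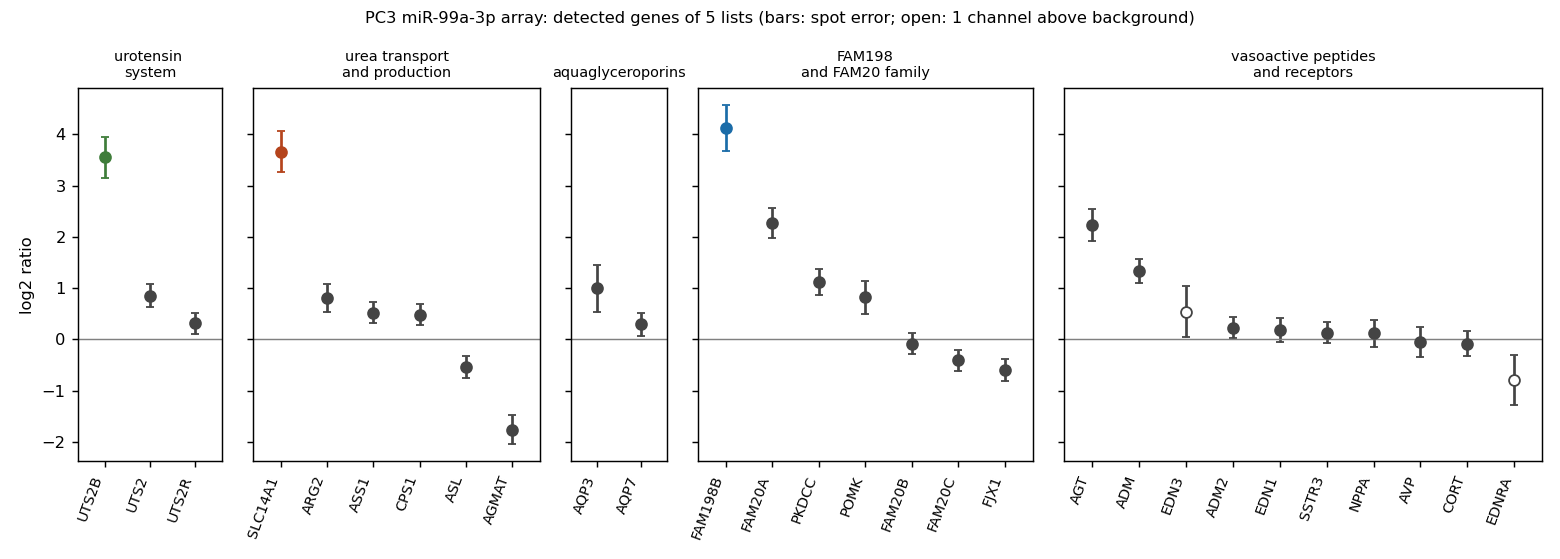
Log2 ratio on the PC3 miR-99a-3p array (vertical axis) for the detected genes of the 5 lists, with the spot error as bars and open symbols where 1 channel was above background. The 3 chosen genes are coloured. Apart from these, FAM20A at 2.27 and AGT at 2.23 lie above 2.

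The genes next to each member on hg19 were read at their own brightest probes. CCDC50, the nearest gene after UTS2B (115528 bases between probes), had log2 ratios of 0.83 (spot error 0.22) with miR-99a-3p, 0.42 (0.21) with miR-100-3p and −0.37 (0.21) with miR-150-3p in PC3. Its order over these arrays differed from that of UTS2B, which had 1.69 with miR-150-3p. OSTN on the other side (17096 bases) was not above background on any array. SIGLEC15, the nearest gene after SLC14A1 (90476 bases), had 0.18 (0.21) with miR-99a-3p, and the neighbours of FAM198B, XLOC_l2_011327 and LOC101929911, were not above background on any array.

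The genes whose log2 ratios over the 8 arrays were most like those of each member were sought among 15941 genes above background in at least 1 channel on every array. For FAM198B these were SIAE, TMEM128, TRAPPC2B, an unnamed transcript and PFKL, with Pearson correlations of 0.98 to 0.96. For SLC14A1 they were SERGEF, ARHGAP17, GLT8D1, an unnamed probe and KIAA1671, with 0.97 to 0.95, and for UTS2B they were ITM2B, C20orf194, EID2B, LEPROT and ITFG1, with 0.97 to 0.96. The PC3 miR-99a-3p array, which chose the members and is their highest point, is one of the 8. Over the other 7 arrays, a comparison added after seeing the data, the correlations of these genes were 0.94 to 0.97 for FAM198B, 0.81 to 0.90 for SLC14A1 and 0.85 to 0.92 for UTS2B. The genes were picked over 8 arrays that include these 7. High values there follow in part from the choice and are no separate check. The likeness is one of shape and not of size. On the PC3 miR-99a-3p array SIAE had a log2 ratio of 0.75, SERGEF 0.42 and ITM2B 1.02, against 4.12, 3.66 and 3.55 for the members. All points share 1 slide and the dye orientation, several share the cell line, and the profiles of the members include dim spots, for SLC14A1 2 arrays and for UTS2B 4 arrays with neither channel above background, which are listed at 0.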

How the data were processed

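Each of the 8 arrays compared mock (Cy3) with transfected (Cy5) cells. The authors processed the scans with Agilent Feature Extraction 10.7.3.1, which subtracted background and normalized the dyes within each array. The deposited intensities are not scaled between arrays, and the deposited log10 ratios and their errors come from the same run. Deposited scanner flags (other columns) mark spots well above background. Series values equalled these ratios (largest difference 0). Ratios were multiplied by 3.3219 to log2. Outlier spots were left out, 81 to 178 of 60901 gene spots per array. Each gene was represented by its brightest probe, and counted as detected if 1 channel or both were well above background. The number of arrays limits the precision, and with 1 array per condition no ratio was tested. Where 1 channel was dim, a bound used the lowest signal called above background in that channel, or the spot's own if higher. Mock levels were scaled with Aquantile and tested with limma 3.58.1 (R 4.3.3) on 7 arrays, for probes above background in at least 2. limma was checked on simulated data. numpy 2.4.6 and pandas 2.3.3 (Python 3.11.15) did the rest. Groups came from the labels. Genes named are the members, detected genes of 5 lists, the 5 genes after the last member, neighbours on hg19 and the 5 most alike. The members, lists and tests were chosen with earlier results of these data known. Alternatives were other background corrections, controls, probes, filters, scalings and arrays. All 3 members matched RefSeq (GRCh38.p14), whose gene coordinates were not used. Some cell line markers are not reported here.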

Additional observations from a re-analysis of the deposited data

Results flagged for a closer look

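Of 16 genes of the lists and the members that were above background in both channels under miR-99a-3p in PC3 and in FaDu cells, 8 had log2 ratios of opposite sign in the 2 lines, each larger than its spot error. Over all 14882 genes above background in both channels of both arrays the share was 22.9%, against 50% of these 16. Each line has 1 array, so none of these differences was tested. The urea pathway genes ARG2 and ASS1 were higher in transfected than mock PC3 cells (0.80 and 0.52) and lower in FaDu (−2.61 and −2.14), PC3 minus FaDu 3.42 and 2.66. AGMAT ran the other way, −1.76 in PC3 and 0.23 in FaDu (−1.99). The peptide genes ADM (1.34 and −1.67) and ADM2 (0.23 and −1.26) differed by 3.01 and 1.49, and the urotensin receptor UTS2R (0.31 and −0.57) by 0.888. FAM20C (−0.41 and 1.37) and FJX1 (−0.60 and 1.31), both of the family of FAM198B, differed by −1.78 and −1.91. These values are those of the brightest probes. At its other probe FAM20C had −0.82 in PC3 and −0.75 in FaDu, and ADM2 −0.15 and −0.32, without opposite signs. The other probe of ASS1 had 0.19 and −2.17, still opposite. The count of opposite signs thus depends on the probe. FAM198B itself was higher in transfected cells in both lines, at 4.12 and 1.68 (2.55 and 0.66 with normexp).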

How the results depend on the processing

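Ratios on the PC3 miR-99a-3p array kept their sign under every alternative run. These ratios chose the genes as the highest, so a kept sign is no separate check. Background correction by normexp (offset 50) with loess gave 2.55 for FAM198B, 3.07 for SLC14A1 and 1.97 for UTS2B, and 13 genes above 2 on the array. That correction adds an offset to both channels, which shrinks ratios of dim spots. FAM198B had 3.49 with the mean of the 4 PC3 mock channels as the control and 3.27 less the mean of the other 3 PC3 arrays, and UTS2B had 2.83 less that mean. SLC14A1 had 2.25 as the mean of its probes and 0.35 (spot error 0.55) as the lowest probe, whose Cy5 was not well above background. The number of genes above 2 was 209 with no filter, 46 with both channels above background and 869 at a threshold of 1. On 6 other arrays 26 of 70 recomputed member ratios moved by more than their spot error. The 70 include the series values and the ratios with outlier spots kept, which equalled the main value for every member. The share that moved is thus larger among the alternatives that could change a ratio. Normexp gave FAM198B 1.91 and UTS2B 0.70 with miR-150-3p, SLC14A1 0.96 with miR-100-3p and FAM198B 0.66 with miR-99a-3p in FaDu. The sign turned for 4 of the 70. Less the mean of the other 3 PC3 arrays, FAM198B with miR-150-5p had −1.14 and UTS2B with miR-100-3p −0.85. That mean includes the PC3 miR-99a-3p array, which chose the genes. SLC14A1 with miR-150-5p had 0.21 as the mean of its probes, and UTS2B with miR-150-5p 0.01 under normexp.

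For the mock levels, 104 of 108 recomputed differences kept their direction and their side of the threshold. This count is no check of stability. It includes differences that the filter built in, and UTS2B between FaDu and PANC-1, both without a signal above background. Leaving out an array of a line outside the contrast also returned the same difference. The size of the differences shrank with normexp, for PC3 minus FaDu to 1.76 for SLC14A1, 0.64 for UTS2B and 0.25 for FAM198B. For PC3 minus PANC-1 it shrank to 0.86 for SLC14A1 and 0.43 for UTS2B. FAM198B in PC3 minus FaDu was 0.79 with all 8 arrays (limma adjusted p = 0.0742) and 0.76 to 1.24 when 1 array was left out (limma adjusted p = 0.0061 to 0.0976). FAM198B in FaDu minus PANC-1 was −0.93 to −0.46 when 1 array was left out, with an adjusted p of 0.0386 in limma without the PC3 miR-100-3p array. UTS2B in FaDu minus PANC-1 was −0.21 with normexp and loess (limma adjusted p = 0.0184), a change of sign between 2 lines without a signal above background. The cause was not tested. Of the 5 genes most like each member, Spearman correlation shared 1 each.

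No paired analysis was possible because the array of a condition has no replicate. Depth is limited by signal over background, since on 4 of 8 arrays UTS2B was not above background in either channel.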
